A study of Mus musculus with 2 samples.

Results

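The nuclear-encoded subunits of the mitochondrial respiratory chain were examined in single-nucleus RNA-seq of fetal mouse whole brain. Members were all genes whose symbol names a subunit of NADH dehydrogenase (Nduf genes of the a, ab, b, c, s and v series), succinate dehydrogenase (Sdha to Sdhd), the cytochrome bc1 complex (Uqcr genes), cytochrome c oxidase (Cox4 to Cox8 genes) or ATP synthase (Atp5 genes). This gave 87 of the 55416 features in the deposited count matrices: 38 for complex I, 4 for complex II, 8 for complex III, 19 for complex IV and 18 for complex V. The rule used symbols only and no measured value, although it was set with earlier results of these data known.

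The study compared a wildtype sample with a Cav1 knockout (KO) sample, with 1 library per genotype, both labelled as fetal whole brain. Cav1 encodes caveolin 1, a membrane protein of caveolae, and the title of the series asks about its role in the metabolic programming of fetal brain. The strain, the fetal day, the sex and the number of animals per library, and whether the deletion was present in all cells, are not given in the sources used here. Nuclei had been purified from frozen tissue and captured with 10x Genomics 3′ chemistry, in which each RNA molecule is counted once by a unique molecular identifier (UMI).

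Mitochondrial ATP production rests on a chain of enzyme complexes in the inner mitochondrial membrane. Complexes I and II feed electrons from NADH and succinate into coenzyme Q, complex III passes them to cytochrome c, and complex IV hands them to oxygen. The proton gradient built on the way drives ATP synthase, complex V. Most subunits are encoded in the nucleus, made in the cytosol and imported, while a small core is encoded and translated in the mitochondrion itself. Neurons depend heavily on this chain, whereas neural progenitors are known for a larger share of glycolysis. The assay measured RNA in nuclei, so the values describe nuclear and adhering transcripts and not protein, assembled complexes or respiration.

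Barcodes with at least 500 detected genes and at most 5% mitochondrially encoded UMIs were kept as nuclei. There were 6686 in the library labelled wildtype, with 17205381 UMIs, and 6680 in the library labelled knockout, with 19878903 UMIs. The median nucleus held 2133.5 and 2366 UMIs. Throughout, pairs of values give the wildtype-labelled library first. Of the kept nuclei, 10 had a barcode found in both libraries. Cav1 itself was counted 71 and 80 times, with a log2 ratio of -0.036 (-0.52 to 0.45). Counts of Cav1 therefore did not separate the labels over all nuclei, and the libraries are named by their labels here. In the endothelial cell-like class, where caveolin 1 is normally abundant, the counts were 17 and 1 UMIs (65.6 and 2.76 CPM, the usual scaling of counts to an equal total), a log2 ratio of -4.57 (-9.96 to -1.90), and in the radial glia-like class 23 and 17. With 1 library per genotype there is no replicate check and no test. Intervals in parentheses are exact 95% intervals of the counts, they cover counting error only, and ratios are those of CPM, knockout-labelled over wildtype-labelled, on the log2 scale.

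The promoters of 4 members are shown because the sequence motifs and the isoform contrasts described further on refer to them. Each line gives the 250 bases before the annotated start of the gene's reference transcript (GENCODE M39, GRCm39), 5′ to 3′ on the gene's strand. Capitals mark a motif match: the core of the nuclear respiratory factor 1 (NRF1) site in Ndufa13 (chr8:70355873-70356122, minus strand) and the ETS core, read on the opposite strand, in Cox8a (chr19:7194965-7195214, minus strand). Cox6b1 (chr7:30325617-30325866, minus strand) and Cox6b2 (chr7:4756036-4756285, minus strand) are the widely expressed and the testis isoform of the same complex IV subunit, and neither holds a match. All 4 genes are protein-coding. By GENCODE, Ndufa13 overlaps Yjefn3 on the same strand and Tssk6 on the other, and Cox8a overlaps an unnamed gene model on the other strand.
Ndufa13: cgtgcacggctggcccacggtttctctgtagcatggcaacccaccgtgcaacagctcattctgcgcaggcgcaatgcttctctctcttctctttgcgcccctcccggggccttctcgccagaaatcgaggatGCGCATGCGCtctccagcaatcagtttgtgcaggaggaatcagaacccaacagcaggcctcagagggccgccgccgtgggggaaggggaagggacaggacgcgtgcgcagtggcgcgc
Cox8a: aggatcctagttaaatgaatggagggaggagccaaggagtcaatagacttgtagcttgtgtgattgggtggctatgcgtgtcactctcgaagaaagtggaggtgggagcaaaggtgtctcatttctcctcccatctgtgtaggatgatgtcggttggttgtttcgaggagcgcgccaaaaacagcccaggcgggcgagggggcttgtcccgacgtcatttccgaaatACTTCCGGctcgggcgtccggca
Cox6b1: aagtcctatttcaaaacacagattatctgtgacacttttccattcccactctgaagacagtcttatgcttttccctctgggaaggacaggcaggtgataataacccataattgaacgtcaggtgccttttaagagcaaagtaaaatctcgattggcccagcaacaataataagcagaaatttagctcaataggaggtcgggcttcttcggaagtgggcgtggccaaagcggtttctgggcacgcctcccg
Cox6b2: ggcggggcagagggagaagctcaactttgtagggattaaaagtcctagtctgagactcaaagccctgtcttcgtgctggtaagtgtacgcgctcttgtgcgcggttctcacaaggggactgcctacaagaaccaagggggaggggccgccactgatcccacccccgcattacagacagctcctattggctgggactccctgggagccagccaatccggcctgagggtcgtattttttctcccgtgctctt

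The subunits were counted at nearly the same level in both libraries. Their share of all UMIs was 0.763% and 0.773%, and the log2 ratio of the sum was 0.019 (0.0079 to 0.029). Of the 87 members, 80 had at least 100 UMIs over both libraries. None of these 80 was higher, and none was lower, in the knockout-labelled library by the fold threshold used here, a log2 ratio of 0.32 in size. Among all 15528 features with at least 100 UMIs, 8.02% were higher and 4.60% lower by that fold. At a threshold of 1.5-fold, which no member passed either, the shares were 2.12% and 0.605%. Over features with at least 500 UMIs the shares at the first threshold were 3.95% and 1.89%, and the median subunit among the 80 had 2751.5 UMIs. The log2 ratios of single members ran from -0.22 to 0.20 with a median of 0.031, against a median of -0.014 over all features. The ratio was above 0 for 51 of the 80 members, or 63.8%, and for 46.5% of all features.

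For 62 of the 80 members the counting interval held 0. The interval lay above 0 for 12 members and below 0 for 6, against 13.2% of all features above and 13.2% below. In the order of their ratio, the 5 highest were Ndufb8, Ndufb2, Atp5k, Cox6c and Ndufa5, and the 5 lowest were Atp5g2, Uqcrc1, a read-through model of Atp5o, Ndufb6 and Ndufa7. Members of complexes I and V stood at both ends.

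**Figure D1:**
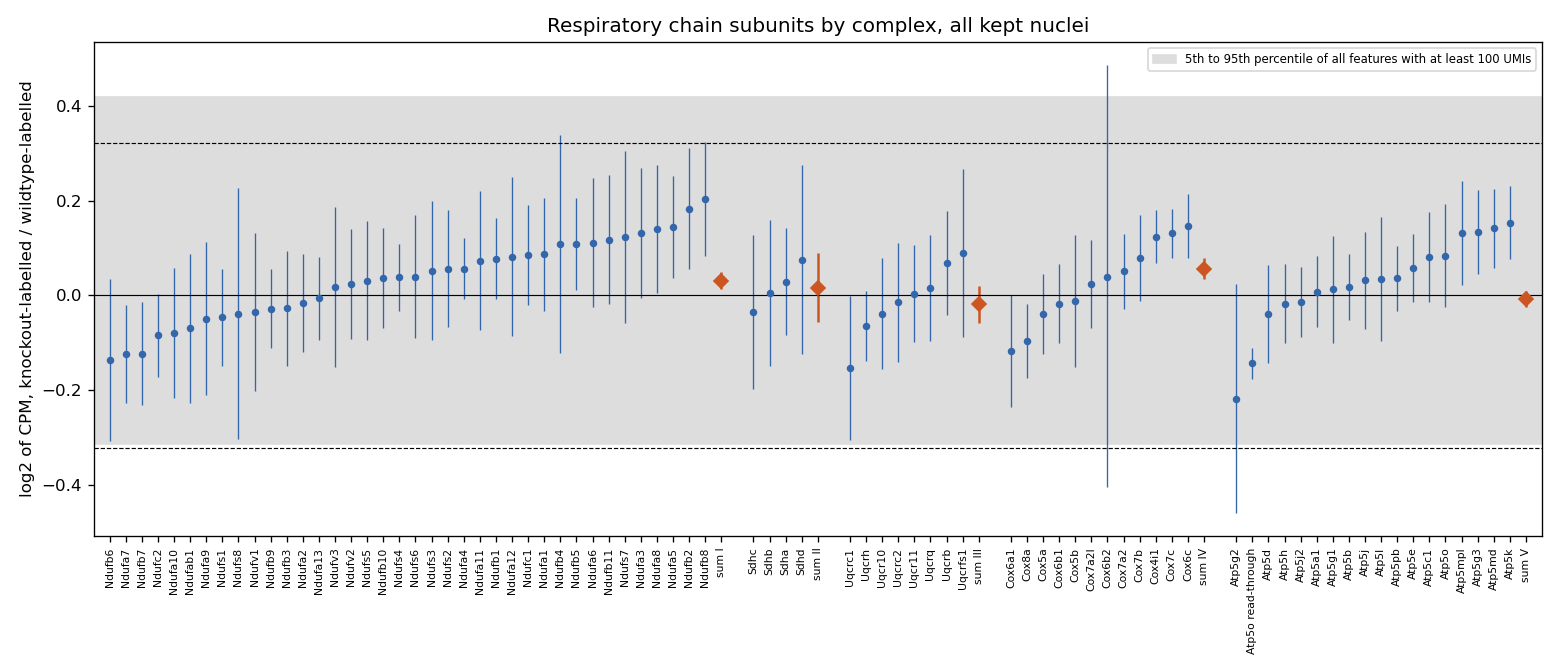
Log2 ratio of CPM, knockout-labelled over wildtype-labelled, for the 80 members with at least 100 UMIs (points, ordered within each complex) and for the sum of each complex (diamonds), with exact 95% counting intervals. The grey band spans the 5th to 95th percentile of all features and the dashed lines mark the fold threshold. No member lies past a dashed line, and the sums lie between -0.019 and 0.057.

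Complex I, the NADH dehydrogenase, had 43636 and 51500 UMIs over its 38 subunits, or 2536 and 2591 CPM. The log2 ratio of its sum was 0.031 (0.012 to 0.049). Its most counted members were Ndufa4, Ndufs4 and Ndufb9. Ndufa4 (3571 and 4291 UMIs, log2 ratio 0.057) is sorted here by its name, although its protein is now known as a subunit of complex IV. Ndufs4 (3014 and 3575 UMIs, 0.038), an accessory subunit whose loss causes a mitochondrial encephalopathy, is spread over 102.8 kb of chromosome 13 (114421982 to 114524794). Ndufb9, a membrane arm subunit, had 2212 and 2506 UMIs and a ratio of -0.028. These 3 differed by less than their counting intervals. Ndufb8, another membrane arm subunit, had the highest ratio of all members. It was counted 992 and 1319 times, at 57.7 and 66.4 CPM, and its ratio was 0.20 (0.083 to 0.32). Ndufb2 (872 and 1144 UMIs) followed with 0.18 (0.055 to 0.31), and Ndufa5 (1255 and 1603 UMIs) had 0.14 (0.037 to 0.25). At the other end were Ndufb6 with -0.14 (-0.31 to 0.034) and Ndufa7 with -0.12 (-0.23 to -0.020). Subunits of the same membrane arm, Ndufb8 and Ndufb6, were thus at opposite ends of complex I. Ndufb8 lies on chromosome 19 (44537011 to 44543939, minus strand) and overlaps the gene model Gm20538 on its own strand.

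Complex II, succinate dehydrogenase, is the only complex with no mitochondrially encoded subunit and links the chain to the citric acid cycle. Its 4 genes gave 2777 and 3245 UMIs, 161 and 163 CPM, and a log2 ratio of 0.016 (-0.057 to 0.090). Sdha, the flavoprotein, had 1171 and 1380 UMIs and a ratio of 0.029. Sdhb, the iron-sulfur subunit, had 640 and 742 UMIs and 0.0050. The membrane anchors Sdhc (589 and 664 UMIs) and Sdhd (377 and 459 UMIs) had -0.035 and 0.076. The interval of each of the 4 genes held 0.

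Complex III had 9982 and 11385 UMIs over 8 genes and a log2 ratio of -0.019 (-0.058 to 0.020). Cyc1, its cytochrome c1 subunit, is not reached by the symbol rule and had 943 and 1169 UMIs. Uqcrh, the hinge protein, was counted most (2822 and 3117 UMIs, -0.065). Uqcr11 (1452 and 1682 UMIs, 0.0038) and Uqcrb (1245 and 1508 UMIs, 0.068) came next. The interval of all 3 held 0. Uqcrc1, a core subunit, was the lowest of the complex with 701 and 728 UMIs, 40.7 and 36.6 CPM, a log2 ratio of -0.15 (-0.31 to -0.0022).

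Complex IV, cytochrome c oxidase, had 27920 and 33547 UMIs and the highest ratio of the complexes, 0.057 (0.034 to 0.079). Its most counted subunits all lay above that sum. Cox7c had 5286 and 6687 UMIs, 307 and 336 CPM, a log2 ratio of 0.13 (0.079 to 0.18). Cox4i1, a regulatory subunit of the enzyme, had 4639 and 5839 UMIs and 0.12 (0.068 to 0.18). Cox6c had 3063 and 3917 UMIs and 0.15 (0.078 to 0.22). Against these, Cox8a (2562 and 2769 UMIs) had -0.096 (-0.17 to -0.018). Cox6a1 (1142 and 1216 UMIs) had -0.12, with an interval that lay below 0 and ended near it. The small nuclear-encoded subunits of 1 enzyme therefore spread over both sides of 0 by amounts beyond counting error but under the fold used.

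Complex V, ATP synthase, had 47006 and 54016 UMIs over 18 features and a log2 ratio of -0.0078 (-0.026 to 0.010). Without the read-through model described next, its 17 other genes gave 32421 and 38758 UMIs and 0.049 (0.028 to 0.071). Atp5pb, a subunit of the peripheral stalk, had 3167 and 3752 UMIs and 0.036. Atp5b, the catalytic beta subunit, had 3136 and 3667 UMIs and 0.017. Atp5k, a small membrane subunit at the dimer interface, had 2408 and 3094 UMIs and the highest ratio of the complex, 0.15 (0.076 to 0.23). Atp5g2 had the lowest ratio of all members, -0.22 (-0.46 to 0.024), from 285 and 283 UMIs. It lies on chromosome 15 (102571295 to 102580787, minus strand).

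These small differences depended on which nuclei were counted. Over 11 alternative settings the 5 complex sums lay between -0.079 and 0.14, and 15 of the 55 values were below 0. Complex I turned to -0.0078 with a minimum of 1000 genes per nucleus and to -0.0055 without the nuclei of a low-UMI cluster described further on. With the 8% highest doublet scores removed, the 86 members other than the read-through model had a ratio of 0.0086 in place of 0.038. The members at the ends changed too. The highest was Ndufb5 with 1000 genes (0.15), Cox6b2 with the highest doublet scores removed (0.27) and Ndufa1 with thinning to 1000 UMIs (0.38). The lowest was Ndufb6 with 1000 genes (-0.25) and Cox6b2 with thinning (-0.28). With a 2% mitochondrial limit or the same mix of classes, Ndufb8 and Atp5g2 kept the ends.

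The feature with the most member UMIs was not an ordinary subunit gene. The symbol Atp5o is carried by 2 features. The ordinary gene encodes the subunit that confers oligomycin sensitivity at the top of the peripheral stalk. It lies on chromosome 16 (91720317 to 91728575, minus strand), with 1256 and 1538 UMIs and a ratio of 0.084 (-0.025 to 0.19). The other, marked by GENCODE as a read-through gene, runs from 91481286 to 91723870 on the same strand, 242.6 kb, across Cryzl1 and Donson on its own strand and Itsn1 on the opposite strand. It had 14585 and 15258 UMIs, more than any other member, and a log2 ratio of -0.14 (-0.18 to -0.11). Itsn1, which encodes an endocytic scaffold protein of neurons, had 5902 and 6297 UMIs and -0.11 (-0.17 to -0.063), while Cryzl1 had 576 and 726 UMIs and 0.13.

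Across classes of nuclei the read-through model did not have the distribution of the other complex V genes. It was highest in the cortical excitatory neuron-like class (1429 and 1380 CPM), where Itsn1 was highest too (573 and 550 CPM). In the radial glia-like class the read-through model had 529 and 512 CPM and Itsn1 had 197 and 195 CPM. In unnamed cluster 1, where the other subunits were highest, the read-through model had its lowest level, 51.5 and 40.2 CPM. Whether the counting used the strand of the reads is not given in the sources used here, so reads of Itsn1 and of the read-through model may not be told apart. For this reason sums over all members are given without it below.

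**Figure D2:**
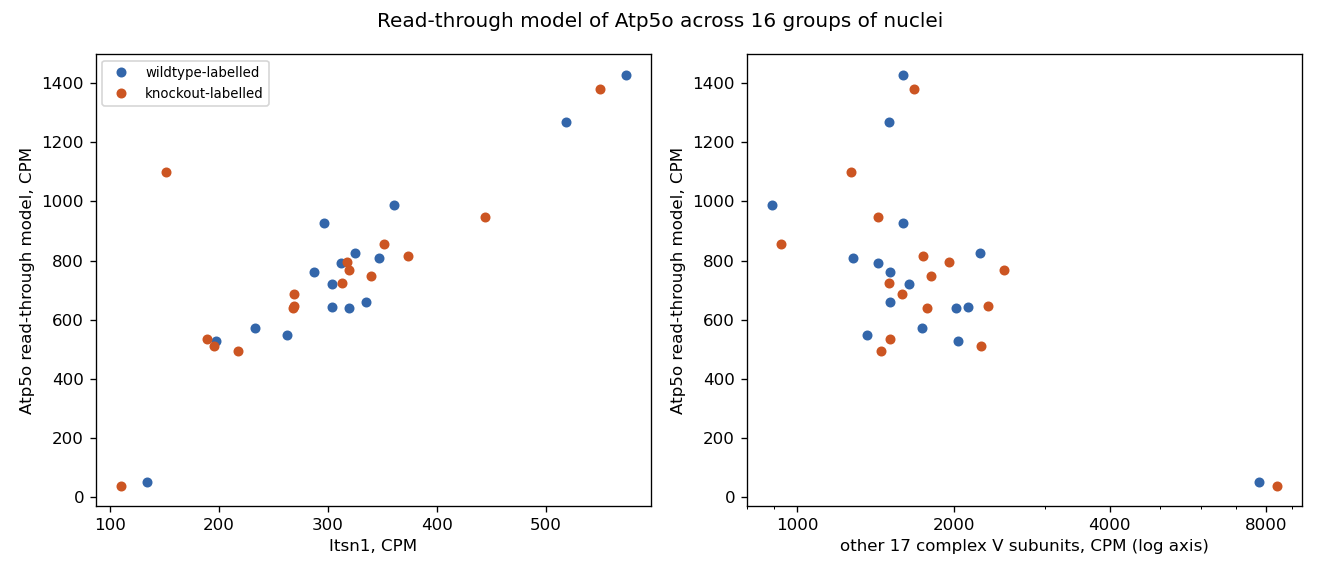
Level of the Atp5o read-through model (vertical axis, CPM) in 16 groups of nuclei per library against Itsn1 (left, CPM) and against the sum of the other 17 complex V genes (right, CPM, log axis). The highest point is the cortical excitatory neuron-like class of the wildtype-labelled library (1429 CPM), and unnamed cluster 1 sits lowest (51.5 and 40.2 CPM).

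In the Cox4i, Cox6b, Cox7b and Cox8 families the widely expressed form made up most counts, while the Cox7a family was divided between a pair of genes. Cox4i2, a lung and hypoxia-linked isoform, was 0.557% (0.364 to 0.816%) and 0.511% (0.345 to 0.729%) of the Cox4i pair, from 26 and 30 UMIs. In the mural cell-like class, which holds vessel-wrapping pericytes in brain, it had 1 and 4 UMIs (11.4 and 30.2 CPM). The much larger cortical excitatory neuron-like class had 2 and 3 UMIs (0.662 and 1.27 CPM). These levels rest on 1 to 4 UMIs and are uncertain, and enrichment in a class was not tested. Cox7a1, a heart and muscle isoform, was 0.481% and 0.406% of its family. Cox7a2 made up 57.2% and 57.6%, and Cox7a2l, also known as a factor of supercomplex assembly, 42.4% and 42.0%. Cox7b2 was 0.549% and 0.540% of the Cox7b pair. The muscle and testis isoforms Cox6a2 and Cox8c had 0 UMIs in both libraries, with exact upper limits of 0.214 and 0.186 CPM, and Cox8b had 0 and 1. Cox6c2, which also matched the rule, is annotated as a processed pseudogene and had 0 and 2 UMIs. With Cox4i2, Cox7a1 and Cox7b2 these make the 7 members under 100 UMIs, all of complex IV.

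Cox6b2 was the member whose level differed most between classes. Over all nuclei it was 3.49% (2.78 to 4.33%) and 3.63% (2.95 to 4.42%) of the Cox6b pair, from 80 and 95 UMIs. In the fibroblast-like class its share was 25.5% (13.9 to 40.3%) and 14.0% (6.26 to 25.8%), from 12 and 8 UMIs, or 35.6 and 20.6 CPM. In the cortical excitatory neuron-like class it was 0.570% and 1.54%, from 2 and 4 UMIs, or 0.662 and 1.70 CPM. The fibroblast-like intervals lay above the cortical ones in each library. The choroid plexus epithelium-like class, with under 100 nuclei per library, had 9 and 6 UMIs (49.5 and 30.6 CPM). Cox6b2 spans 1.305 kb of chromosome 7 (4754789 to 4756093, minus strand), overlaps no other gene, and its promoter is the last of those printed above.

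The 3 genes of the c ring, Atp5g1, Atp5g2 and Atp5g3, encode the same mature protein. Atp5g3 gave 55.5% and 58.3% of their UMIs, Atp5g1 35.9% and 34.7%, and Atp5g2 8.55% (7.62 to 9.55%) and 7.03% (6.26 to 7.86%). The order of the 3 genes was the same in each of the 8 named classes with at least 100 nuclei per library. The share of Atp5g2 was highest at 11.7% (8.61 to 15.5%) in the radial glia-like class of the wildtype-labelled library. In the knockout-labelled library it was 11.8% (8.38 to 16.1%) in that class and 15.5% (8.0 to 26.0%) in the fibroblast-like class. In the cortical excitatory neuron-like class it was 9.74% (7.19 to 12.8%) and 4.90% (3.02 to 7.47%).

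The levels of the subunits differed far more between classes of nuclei than between the libraries. Clustering, from which all members were left out, gave 23 clusters: 12 classes named by markers and 4 unnamed clusters. Without the read-through model, the members were highest in the forebrain inhibitory neuron-like class among the 8 larger named classes, with 8089 and 8657 CPM. The intermediate progenitor-like (7701 and 8216 CPM) and radial glia-like (7304 and 8084 CPM) classes followed, and the counting intervals of these 3 classes did not overlap in the wildtype-labelled library, while those of the last pair overlapped in the knockout-labelled one. The order of these 3 classes depended on the processing. With nuclei thinned to 1000 UMIs, the radial glia-like class stood above the intermediate progenitor-like class, at 8058 against 7942 CPM and at 8874 against 8549 CPM. Thinning left out the 846 and 1111 nuclei under 1000 UMIs. With the highest doublet scores removed it did so in the knockout-labelled library (8271 against 8161 CPM). At clustering resolution 2 the intermediate progenitor-like class had 8635 CPM in the knockout-labelled library and the forebrain inhibitory neuron-like class 8614 CPM. Next came the fibroblast-like class with 6041 and 6435 CPM and the cortical excitatory neuron-like class with 5718 and 6024 CPM. The other inhibitory neuron-like class had 5553 and 5748 CPM. This order also changed with the clustering. Names were given anew at each resolution, also at resolution 2 above, so a name covers different nuclei. At resolutions 0.5 and 2 the cortical excitatory neuron-like class stood above the fibroblast-like one in both libraries (6301 and 6633 CPM at 0.5, 6183 and 6469 CPM at 2). The other inhibitory neuron-like class had 6349 and 7327 CPM at resolution 0.5. It then held 506503 and 351166 UMIs, against 2487276 and 4271588 UMIs at resolution 1, so these levels are not those of the same nuclei. The cortical excitatory neuron-like class held 4500369 and 3592678 UMIs at 0.5, against 3020696 and 2354589 at 1. At resolution 1 the lowest were the Cajal-Retzius cell-like class (5380 and 5427 CPM) and the other excitatory neuron-like class (5230 and 5477 CPM), whose intervals overlapped in both libraries. The 4 small classes lay between 4855 CPM (choroid plexus epithelium-like) and 7244 CPM (mural cell-like) in the wildtype-labelled library, and between 5269 CPM (microglia or macrophage-like) and 6848 CPM (mural cell-like) in the knockout-labelled library.

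**Figure D3:**
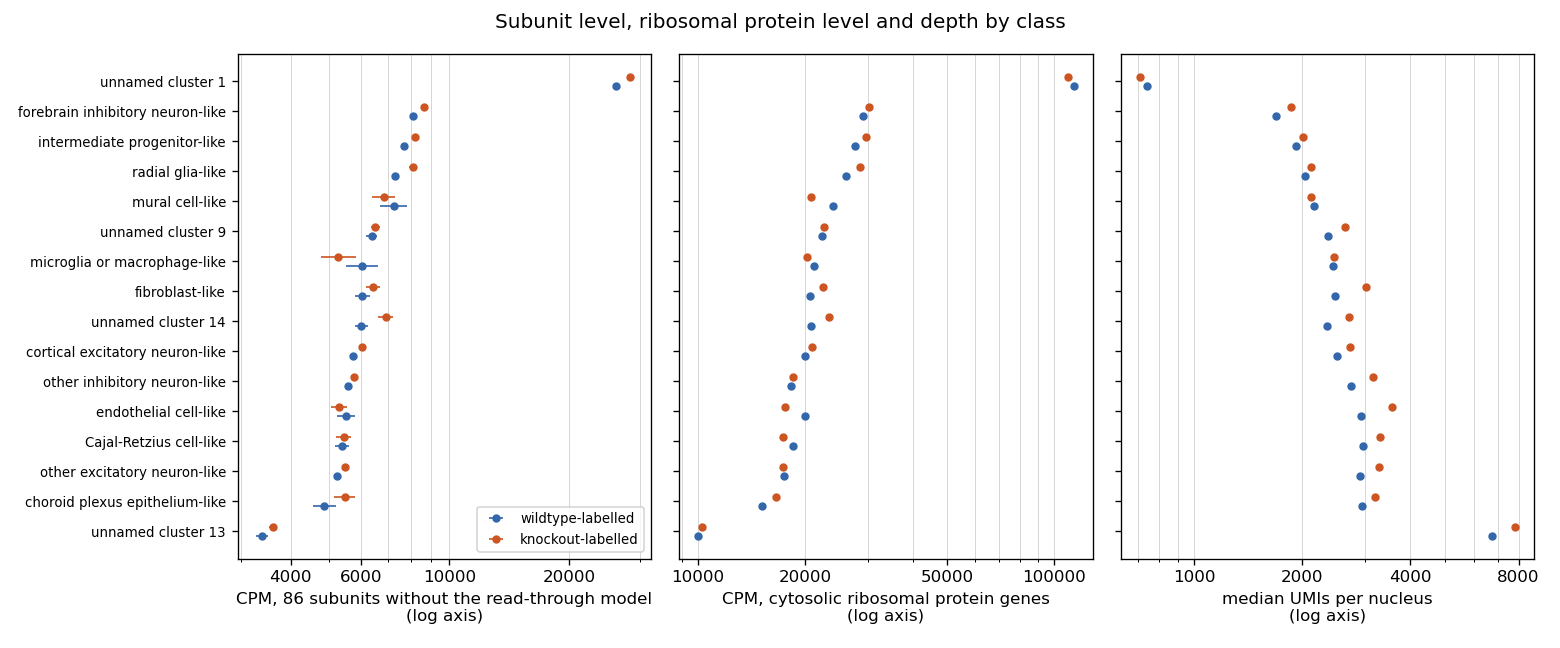
Summed CPM of the 86 subunits other than the read-through model (left, with exact 95% counting intervals), CPM of cytosolic ribosomal protein genes (middle) and median UMIs per nucleus (right) in 16 groups of nuclei, all on log axes. Subunits run from 3389 CPM in unnamed cluster 13 to 28334 CPM in unnamed cluster 1, ribosomal protein genes follow the same order at the ends, and depth runs the opposite way.

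Complexes I and IV, and complex V without the read-through model, were highest in the forebrain inhibitory neuron-like class among the 8 larger classes in both libraries. Complex III was highest there in the wildtype-labelled library (697 CPM) and in the intermediate progenitor-like class in the knockout-labelled one (705 CPM). Complex II was highest in the fibroblast-like class (198 and 206 CPM), followed by the radial glia-like class (186 and 201 CPM). In the forebrain inhibitory neuron-like class, complex I had 3011 and 3188 CPM, against 1986 and 2063 CPM in the other excitatory neuron-like class. For complex III the values were 697 and 668 against 424 and 444 CPM, and for complex IV 1960 and 2133 against 1248 and 1319 CPM. Complex II differed less, with 169 and 169 against 140 and 147 CPM. As a share of all member UMIs, complex II was lowest in the forebrain inhibitory neuron-like class (2.09% and 1.95%) and highest in the fibroblast-like class (3.29% and 3.20%) in both libraries. The share of complex I stayed between 36.8% and 39.3% over the 8 classes and both libraries, and that of complex IV between 22.7% and 25.3%.

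Between these 2 neuron classes nearly every member went the same way. The pair stood at the 2 ends of the order of the summed members in the wildtype-labelled library. A majority of members in this direction was therefore largely set by the choice of classes. Of the 80 members, 72 and 67 (wildtype-labelled first) were higher in the forebrain inhibitory neuron-like class by the fold threshold, and 1 was lower in each. Of all features, 33.3% and 32.9% were higher and 29.7% and 30.5% lower. The member that was lower in each was Cox6b2 (-0.57 and -0.61). The median log2 ratio of the members was 0.60 and 0.64, that of all features 0.074 and 0.058, and that of cytosolic ribosomal protein genes 0.72 and 0.80. Ribosomal protein genes thus differed in the same direction as the subunits. The median nucleus held 1694 and 1858 UMIs in the forebrain inhibitory neuron-like class and 2900 and 3279 UMIs in the other one. With nuclei thinned to 1000 UMIs and those under 1000 left out, the summed log2 ratio between these classes was 0.56 in each library. It was 0.63 and 0.66 before. This setting changed both the depth and the nuclei counted, and the 2 were not separated.

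Of single members, 62 of 80 had their highest class among the forebrain inhibitory neuron-like, intermediate progenitor-like and radial glia-like classes in both libraries. The same count was not made over all features, so it cannot be read as a trait of the subunits. Ribosomal protein UMIs also had their largest shares in these classes among the larger named ones. The median member stood 1.39-fold and 1.41-fold above its median class in its highest one. Besides Cox6b2 and the read-through model, the members that stood farthest above their median class in both libraries were Atp5g2, Ndufs8 and Ndufa3. Ndufs8, an iron-sulfur subunit of complex I, was highest in the fibroblast-like class (9 and 8 UMIs, 26.7 and 20.6 CPM) against median classes of 12.1 and 12.0 CPM. Ndufa3, an accessory subunit, was highest in the forebrain inhibitory neuron-like class of the wildtype-labelled library (57.7 CPM) and in the radial glia-like class of the knockout-labelled one (67.9 CPM). For Atp5g2 and Ndufa3 the highest class was not the same in both libraries.

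Within classes, the ratio of the summed members between the libraries stayed small. Without the read-through model it was above 0 in 13 of 16 groups, its interval was above 0 in 11 and below 0 in none, and no group passed the fold threshold. It ran from -0.20 in the microglia or macrophage-like class (24 nuclei in the wildtype-labelled library) to 0.20 in unnamed cluster 14. Among the larger named classes the radial glia-like class had 0.15 (0.11 to 0.18), the forebrain inhibitory neuron-like 0.098 (0.065 to 0.13) and the intermediate progenitor-like 0.093 (0.054 to 0.13). The cytosolic ribosomal protein genes had 0.13, 0.058 and 0.10 in the same 3 classes. With both libraries given the same mix of classes, the sum was 0.084 in place of 0.038. Single complexes passed the fold threshold in 1 group each: complex II (0.40), complex III (-0.33) and complex V without the read-through model (-0.34). Their intervals held 0 there.

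The 13 subunits encoded in the mitochondrial genome did not have the ratio of the nuclear-encoded ones. Their sum was 22847 and 34534 UMIs, which is a log2 ratio of 0.39 (0.36 to 0.41). Of the 9 with at least 100 UMIs, 4 were higher by the fold threshold, against 8.02% of all features. None was lower, against 4.60%. The 4 were mt-Nd1 (0.40), mt-Nd2 (0.54), mt-Nd4 (0.47) and mt-Nd5 (0.56), all subunits of complex I. To that complex 6 of the 9 belong, and another of them, mt-Nd3 (1027 and 1140 UMIs), had -0.058. By complex, the mitochondrially encoded log2 ratios were 0.45 for complex I, 0.29 for complex III, 0.24 for complex IV and 0.20 for complex V. The last 2 sums rest almost wholly on 1 gene each, mt-Co1 (1069 and 1467 UMIs) and mt-Atp8 (489 and 662 UMIs). The nuclear-encoded subunits of the same complexes had 0.031, -0.019, 0.057 and, for complex V without the read-through model, 0.049 (-0.0078 with it). Mitochondrial RNA in a nucleus preparation comes from outside the nucleus, and the part of carried-over cytoplasm in this ratio was not tested. The filter on mitochondrial UMIs bounds these counts, and without it the ratio was 0.54. With a minimum of 200 genes it was 0.27, and with the highest doublet scores removed 0.31, both under the fold threshold.

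The mitochondrially encoded ratio was above 0 in 15 of 16 groups and passed the fold threshold in 9. In the other inhibitory neuron-like class it was 0.54 (0.47 to 0.61), against 0.050 (0.020 to 0.080) for the nuclear-encoded members. In the radial glia-like class the values were 0.26 (0.17 to 0.35) and 0.15 (0.11 to 0.18). Unnamed cluster 1 was the exception, with -0.23 (-0.30 to -0.16) for the mitochondrially encoded and 0.11 (0.082 to 0.14) for the nuclear-encoded subunits.

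**Figure D4:**
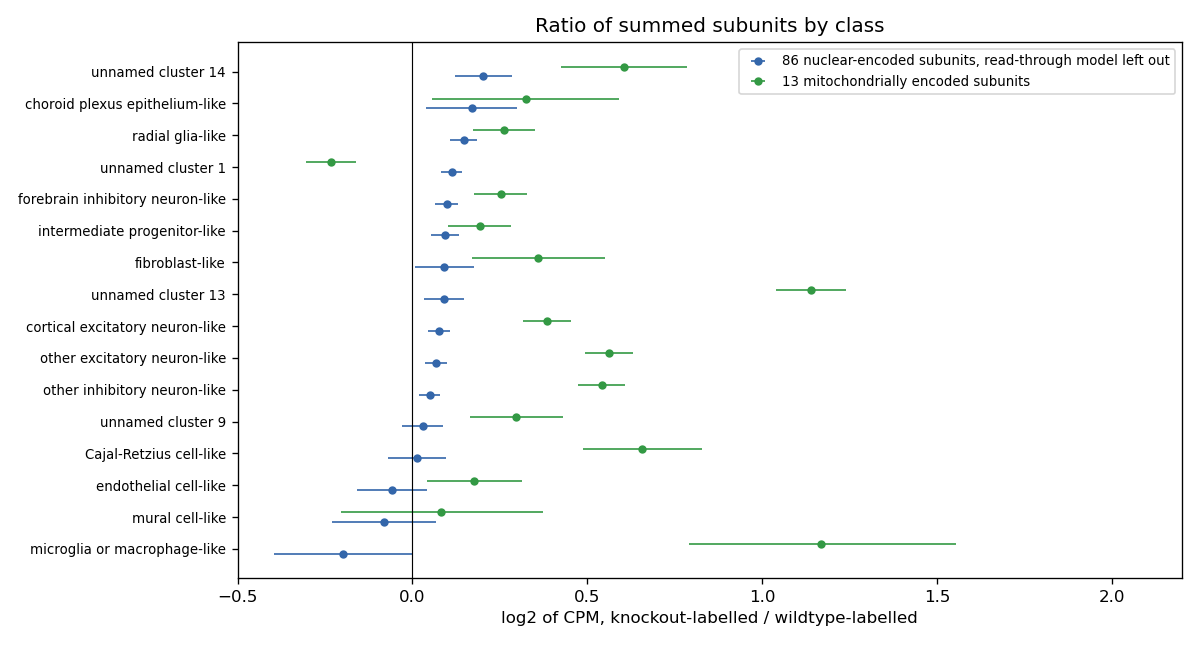
Log2 ratio of CPM, knockout-labelled over wildtype-labelled, in 16 groups of nuclei for the summed nuclear-encoded subunits without the read-through model and for the 13 mitochondrially encoded subunits, with exact 95% counting intervals. The mitochondrially encoded sum is to the right of 0 in 15 groups and at -0.23 in unnamed cluster 1, while the nuclear-encoded sum stays between -0.20 and 0.20.

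Lists of genes that build or regulate the chain had median ratios near 0, but unlike the subunits some of them held genes past the fold threshold, which 8.02% of all features passed upward and 4.60% downward. Of 61 assembly factors found, 60 had at least 100 UMIs, with a median log2 ratio of -0.023, 1 higher and none lower by the fold. The 1 was Sco2, which delivers copper to complex IV (71 and 126 UMIs, 0.62, interval 0.19 to 1.06). Coa4 (0.31) and Ndufaf4 (0.26) came next (factors of complexes IV and I), and the lowest were Dmac2 (-0.27), Ndufaf8 (-0.24) and Acad9 (-0.22), all factors of complex I. Of 22 regulators of mitochondrial biogenesis, 3 were higher and none lower by the fold, with a median of -0.017. The ratio was above 0 for 10 of the 22 and below 0 for 12. Their 95th percentile was 0.54, against 0.14 for the 80 subunits and 0.42 for all features. These 3, named after their values were seen, included the coactivators Ppargc1a (342 and 582 UMIs, 0.56, interval 0.36 to 0.76) and Ppargc1b (125 and 185 UMIs, 0.36, interval 0.022 to 0.70). The other was the receptor Esrrb (85 and 144 UMIs, 0.55, interval 0.16 to 0.96). On the other side, also named after their values were seen, Esrra had -0.26 (-0.44 to -0.082) and Yy1 -0.14 (-0.25 to -0.030). Nrf1, the factor whose core motif is marked in the Ndufa13 promoter, had 3160 and 3309 UMIs and -0.14 (-0.21 to -0.071). Of the 19 tested genes for electron carriers and coenzyme Q synthesis, Etfb was higher (0.37) and Hccs lower (-0.41) by the fold, also named after their values were seen. The list's median was -0.013. Of 84 cytosolic ribosomal protein genes 3 were higher and 1 lower (median -0.040), and of 77 mitochondrial ones none was higher and 1 lower (median -0.035).

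Unnamed cluster 1 held the highest subunit levels of all groups. It had 628 and 969 nuclei, and over both libraries a median of 717 UMIs, 11.1% ribosomal protein UMIs and 1.84% mitochondrially encoded UMIs of its summed counts. Its markers pointed to more than 1 class, with haemoglobin genes among its leading genes at 0.489% of its UMIs, so it was given no name. Without the read-through model its members had 26224 and 28334 CPM. Of the 80 members, 78 were higher by the fold threshold in it than in the nuclei of the named classes, in each library, against 30% and 29.7% of all features. The median log2 ratio was 2.07 and 2.18 for the members and -0.65 and -0.63 for all features.

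Within this cluster the median ratio of the members was lower for longer genes. Genes spanning under 5 kb had a median log2 ratio over the named classes of 2.26 and 2.31, those of 5 to 20 kb 2.13 and 2.23, and those of at least 20 kb 1.54 and 1.66. Across the 79 members other than the read-through model, which share the 2 libraries and the same nuclei, Spearman's rho between span and this ratio was -0.44 and -0.49. Single genes departed from this order, and those named next were picked after their values were seen. Cox7a2l, with a span of 58.79 kb, had log2 ratios of 2.14 and 2.21, and Ndufa8, with 21.854 kb, had 2.53 and 2.61, among the highest of all members. Ndufs3, with 10.3 kb, had only 0.53 and 0.83. The highest ratio belonged to Cox5b in the wildtype-labelled library (2.68) and to Ndufs6 (11.694 kb) in the knockout-labelled one (2.73). Cox5b, which spans 3.966 kb, had 40.0 and 39.2 CPM in the named classes and 256 and 235 CPM in cluster 1. Ndufs1, the large iron-sulfur subunit of complex I, spans 34.179 kb and had 85.7 and 81.6 CPM in the named classes and 84.1 and 84.4 CPM in cluster 1. Ndufs4 and Sdha had log2 ratios of 0.46 and 0.77, and 0.51 and 0.68. The read-through model, the longest at 242.6 kb, had log2 ratios of -4.10 and -4.31.

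**Figure D5:**
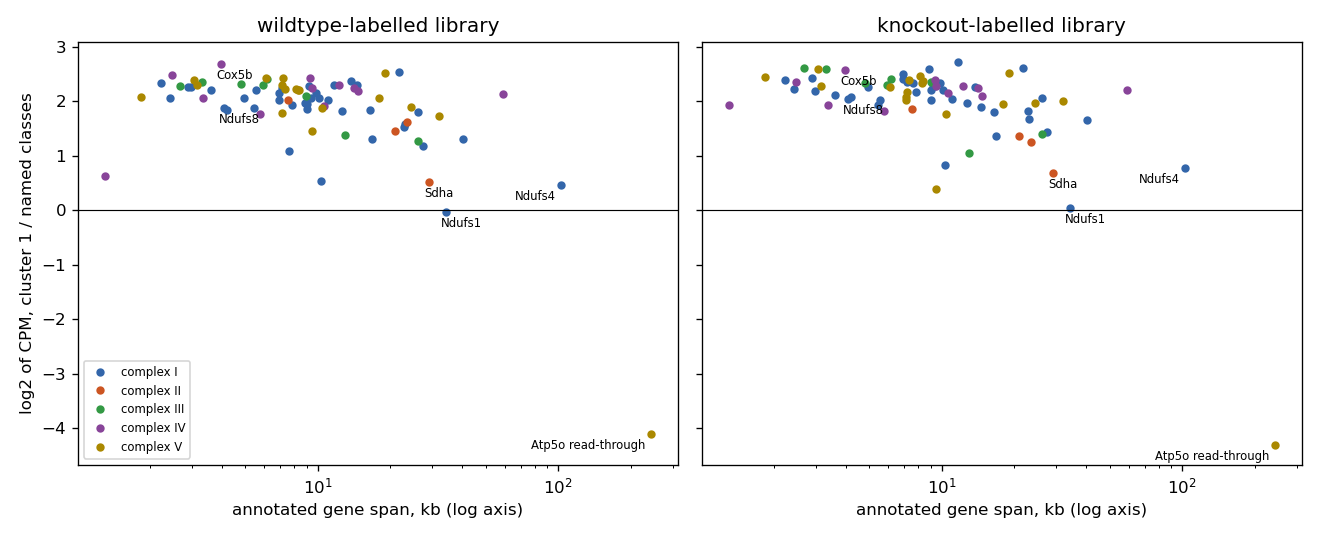
Log2 ratio of CPM in unnamed cluster 1 over the nuclei of the named classes against the annotated span of the gene (kb, log axis), for the 80 members with at least 100 UMIs, by complex and library. The median members lie at 2.07 and 2.18, Ndufs1, Ndufs4, Sdha and Ndufs3 lie under 1 in both libraries, the long gene Cox7a2l lies at 2.14 and 2.21, and the read-through model lies at -4.10 and -4.31.

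Over all kept nuclei the summed level of the members was lower at greater depth. These sums were not split by gene span. Members without the read-through model had 20301 and 24084 CPM in nuclei under 1000 UMIs and 8743 and 10090 CPM from 1000 to 2000 UMIs. From 2000 to 4000 UMIs they had 6412 and 7082 CPM, and at 4000 UMIs or more 4461 and 4457 CPM. The share of ribosomal protein UMIs went from 7.66% and 9.12% in the shallowest nuclei to 1.57% and 1.36% in the deepest. The libraries had 846 and 1111 nuclei under 1000 UMIs, and they had 835 and 1316 nuclei at 4000 or more. The CPM of subunits was nearly equal between the libraries in the deepest nuclei and higher in the knockout-labelled library in the 3 shallower ranges.

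The level of a member also depended on how it is counted. Counts of nuclear RNA include introns only if the counting was set to, which is not given in the sources used here. Per kb of gene span, the levels ran from 76.1 and 84.6 CPM per kb for Atp5k (1.84 kb) to 1.19 and 1.13 CPM per kb for Ndufa10 (40.239 kb), both picked as the ends of this order. Cox7c had 53.2 and 58.2 CPM per kb, and Ndufs4, among the most counted members by UMIs, had 1.70 and 1.75. By GENCODE, 59 of the 87 members overlap a gene on the opposite strand and 15 one on their own strand, and 24 overlap none. Overlaps were not counted over all genes, so these counts have no share to be set against.

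The promoters held the searched motifs in a minority of members. Windows from 250 bases before to 50 bases after the start could be read for 85 members and 21540 protein-coding genes, and both strands were searched. The NRF1 core, GCATGCGC, was in 9 member windows (10.6%) and in 3.67% of all. The YY1 core, AAGATGGC, was in 5 (5.88%) and in 2.43% of all. With only the 250 bases before the start searched, it was in 0 members, against 1.32% of all. The NRF1 core was then in 7.06% of members and 2.66% of all. In RefSeq promoters of 70 members, an added alternative, NRF1 was in 14.3% against 3.61% of all and YY1 in 12.9% against 3.22%. The ETS core was there in 7.14% against 5.29% and TATAAA in 11.4% against 13.3%. The ETS core, CCGGAAGT, was in 4 (4.71%) against 4.34%, and TATAAA in 11 (12.9%) against 13.2%. In the Ndufa13 promoter printed above, the NRF1 core was found on both strands in overlapping letters, with its first base 118 and 116 bases before the start. The ETS core of Cox8a began 23 bases before the start. Of the 250 bases upstream, 68 of the 85 members held none of the 4 motifs, a count not made over all genes. Ndufa13 had 1998 and 2298 UMIs (log2 ratio -0.0066) and Cox6b1 had 2211 and 2523 UMIs (-0.018). A match is a match of letters and no measure of binding.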

How the data were processed

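The authors deposited 1 matrix of raw UMI counts per library, whole numbers per gene and barcode. Cell Ranger 3.0.1, STAR and GRCm39 are named per the submitters' processing notes, whereas the file headers name Cell Ranger 6.1.1, and the annotation, the use of introns and the use of strand are not given in the sources used here. Barcodes with at least 500 genes and at most 5% mitochondrially encoded UMIs were kept, 6686 and 6680 nuclei. UMIs were summed by gene, class and library and divided by the total (CPM), with exact Poisson intervals for levels, exact conditional binomial intervals for ratios and Clopper-Pearson intervals for shares, all at 95%. A difference was counted from a log2 ratio of 0.32 in size, in features of at least 100 UMIs. With 1 library per genotype no test was made.

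Nuclei were clustered with scanpy 1.11.5 and leidenalg 0.10.2 (2000 variable genes per library, 30 components, 15 neighbours, resolution 1). The members, Cav1, mitochondrially encoded genes and the sex-linked genes Xist, Tsix, Ddx3y, Eif2s3y, Kdm5d and Uty were left out. A cluster took the name with the largest share of its marker list at 2-fold or more over the other clusters, with at least 3 such markers. It stayed unnamed where another class had more markers, or more of them among the cluster's leading genes. The same held for clusters of low UMI counts with no marker of the class among their leading genes. Names are rebuilt here and are not the authors'. Scrublet's automatic threshold called 0 doublets in each library, so it did not work as a filter, and removing the 8% highest scores is an alternative. Genes were matched by identifier to GENCODE M39 (54749 of 55416 features, all 87 members). Values are given for the 3 most counted members per complex (all 4 of complex II), the 5 highest and 5 lowest ratios, isoform families, the 5 members farthest above their median class, and the 3 highest and lowest assembly factors. Genes outside this rule were named after their values were seen. Members and lists were chosen with earlier results of these data known. The interval code was tested on simulated data for the comparison of libraries (15528 genes, 200 changed), where 95.7% of the intervals of unchanged and 95.5% of those of changed genes held the true value. Python 3.11.15, numpy 2.4.6, scipy 1.17.1 and pandas 2.3.3 were used.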

Additional observations from a re-analysis of the deposited data

Results flagged for a closer look

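Complex V had a log2 ratio of -0.22 between the libraries in the Cajal-Retzius cell-like class, with an interval below 0, while its interval was above 0 in 6 other groups. That sum includes the read-through model of Atp5o, which had -0.42 there. Without it the other 17 genes had -0.070 (-0.23 to 0.092), and complex V then had an interval below 0 in none of the 16 groups. The difference between groups was not tested.

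The mitochondrially encoded subunits had a log2 ratio of -0.23 in unnamed cluster 1, while their interval was above 0 in 14 other groups. This difference was not tested either.

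Barcodes under 500 genes, which enter no comparison, held subunits without the read-through model at 26714 CPM (wildtype-labelled) and 29511 CPM (knockout-labelled). Kept nuclei had 6785 and 6964 CPM. Ribosomal protein UMIs made up 10.4% and 11.2% of these barcodes.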

How the results depend on the processing

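No paired analysis was possible because each genotype has 1 library. No value past the fold threshold changed direction. Log2 ratios follow in the order stated. With a minimum of 200 genes, complexes I, III, IV and V had 0.12, 0.083, 0.14 and 0.058, complex V without the read-through model 0.12, all members 0.097, all without it 0.12 and the mitochondrially encoded subunits 0.27. The share of Cox6b2 was then 2.83% in the knockout-labelled library and that of Atp5g2 7.19% and 5.35%. With 1000 genes the same ratios were -0.0078, -0.079, 0.020, -0.041, 0.0050, -0.019, -0.0031 and 0.47, and Atp5g2 had 7.87% in the knockout-labelled library. Thinning to 1000 UMIs, which left out 846 and 1111 shallower nuclei, gave 0.079, 0.023, 0.11, 0.027, 0.097, 0.062, 0.086 and 0.34. It also gave 1 member past the fold (Ndufa1), 0.56 and 0.56 between the 2 neuron classes, Cox4i2 0.333% and Cox6b2 2.77% (knockout-labelled) and Atp5g2 7.49% (wildtype-labelled). Without cluster 1, chosen after seeing the data, complexes I, III and V had -0.0055, -0.064 and -0.034, V without the read-through model 0.017, all members -0.011, all without it 0.0064 and the mitochondrially encoded subunits 0.45, with Atp5g2 at 7.87% (knockout-labelled). With the same class mix complexes I, III, IV and V had 0.076, 0.033, 0.10 and 0.043, V without the read-through model 0.10, all members 0.065 and all without it 0.084. For complexes I and IV, V without the read-through model, all members and all without it, a mitochondrial limit of 2% gave 0.055, 0.091, 0.083, 0.043 and 0.068. Removing the highest doublet scores gave 0.00081, 0.029, 0.020, -0.0037 and 0.0086, with 0.31 for the mitochondrially encoded subunits and 2.63% for Cox6b2 (wildtype-labelled). Scaling by the median of gene ratios gave 0.033 for all members and 0.052 without the read-through model. No mitochondrial limit gave 0.54 for the mitochondrially encoded subunits. Class names cover different nuclei at each clustering resolution. At resolution 0.5 the highest over the lowest class was 0.67 (wildtype-labelled) and the 2 neuron classes differed by 0.67 and 0.74. At resolution 2 these were 0.55 and 0.55, and 0.55 and 0.54. With 250 bases only, the YY1 core was in 0% of members and 1.32% of all genes. With RefSeq promoters it was in 12.9% of members and 3.22% of all. The causes were not tested. Of 880 values of single members under the alternatives, 827 moved by less than their counting interval. At 1 library per genotype, differences between animals, litters or captures cannot be told apart from genotype.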
